A study of Mus musculus with 15 samples.

Results

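The genes described here are 42 genes of cell proliferation, matched by exact symbol among the 21110 genes measured by RNA-Seq in mouse ears. All 42 were found. They were sorted by role into 10 DNA replication genes (*Cdc6*, *Cdt1*, *Mcm2* to *Mcm7*, *Gins2* and *Pcna*), 4 genes of nucleotide supply (*Rrm1*, *Rrm2*, *Tyms* and *Tk1*), 3 genes for cyclins E and A (*Ccne1*, *Ccne2* and *Ccna2*), 2 general proliferation markers (*Mki67* and *Top2a*) and 23 mitosis genes. The study asked how gene expression in skin changed when *Socs3*, a feedback inhibitor of cytokine signaling, was deleted with keratin 5, a gene of basal keratinocytes. All mice had the C57BL/6 background, and each library held RNA of ear specimens. The labels list 4 wild type mice aged 2 weeks, 4 *Socs3* cKO (keratin 5-specific conditional knockout) mice aged 2 weeks, 3 wild type mice aged 10 weeks and 4 *Socs3* cKO mice aged 10 weeks.

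A dividing cell copies its DNA in S phase and separates the copies in mitosis. *Mcm2* to *Mcm7* encode the ring that opens the double helix, *Cdc6* and *Cdt1* load that ring onto DNA, *Gins2* encodes a subunit of the complex that activates it, and *Pcna* encodes the clamp that holds the polymerase in place. Many replication genes are driven by E2F factors ahead of S phase. Mitosis genes, such as *Cdk1* with the B cyclins, are driven later through promoters with CCAAT boxes and CHR elements. In skin, the basal layer of the epidermis and the matrix of growing hair follicles hold most of the dividing cells.

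The promoters of 6 members are printed because they show these elements beside the mitosis genes with the smallest p at 2 weeks, a pair of replication genes, and *Tyms*, which had the largest difference at 10 weeks and with age in the wild type. Each run is the 200 bases before the gene's start, from 5′ to 3′ on the gene's strand, from RefSeq sequence of build GRCm38.p6. Capitals mark CCAAT boxes, CHR elements and E2F sites, each read on both strands. A CHR element was searched as TTTGAA and also as TTTAAA. An E2F site was searched as TTCCCGC and also as TTGGCGC and further as TTCGCGC and lastly as TTGCCGC. The positions are chr2:164769729-164769928 on the plus strand for *Ube2c*, chr5:30666686-30666885 on the plus strand for *Cenpa*, chr7:122159235-122159434 on the plus strand for *Plk1*, chr1:128359706-128359905 on the minus strand for *Mcm6*, chr2:132253181-132253380 on the minus strand for *Pcna* and chr5:30073626-30073825 on the minus strand for *Tyms*.
*Ube2c*: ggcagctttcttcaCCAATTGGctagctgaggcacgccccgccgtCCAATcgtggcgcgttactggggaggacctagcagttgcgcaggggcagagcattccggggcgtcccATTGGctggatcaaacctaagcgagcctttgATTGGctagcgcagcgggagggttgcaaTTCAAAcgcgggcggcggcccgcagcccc
*Cenpa*: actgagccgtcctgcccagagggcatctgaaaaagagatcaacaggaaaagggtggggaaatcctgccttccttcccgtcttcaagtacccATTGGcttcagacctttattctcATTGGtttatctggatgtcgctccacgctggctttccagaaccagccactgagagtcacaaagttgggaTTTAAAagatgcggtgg
*Plk1*: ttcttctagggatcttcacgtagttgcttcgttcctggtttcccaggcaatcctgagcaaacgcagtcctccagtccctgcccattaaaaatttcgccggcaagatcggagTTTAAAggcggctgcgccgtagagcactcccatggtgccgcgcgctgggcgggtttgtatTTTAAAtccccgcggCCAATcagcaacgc
*Mcm6*: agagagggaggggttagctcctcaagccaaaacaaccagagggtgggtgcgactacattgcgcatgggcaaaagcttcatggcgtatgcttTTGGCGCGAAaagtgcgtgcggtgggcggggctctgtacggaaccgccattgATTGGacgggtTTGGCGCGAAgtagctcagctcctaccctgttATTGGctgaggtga
*Pcna*: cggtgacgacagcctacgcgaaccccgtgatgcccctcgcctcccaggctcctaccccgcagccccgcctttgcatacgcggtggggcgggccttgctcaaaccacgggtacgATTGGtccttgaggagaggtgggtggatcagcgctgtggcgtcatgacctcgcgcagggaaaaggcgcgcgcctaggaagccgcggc
*Tyms*: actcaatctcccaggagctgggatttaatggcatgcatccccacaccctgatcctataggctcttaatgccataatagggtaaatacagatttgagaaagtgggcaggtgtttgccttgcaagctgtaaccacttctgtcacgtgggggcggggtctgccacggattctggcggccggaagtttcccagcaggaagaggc

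*Ube2c* held 5 CCAAT boxes and 1 CHR element in these 200 bases, *Cenpa* 2 and 1, and *Plk1* 1 and 2. In *Ube2c* the stretch CCAATTGG was counted on each strand. *Mcm6* held 4 E2F matches, which overlap in pairs, and 2 CCAAT boxes. *Pcna* held 1 CCAAT box, and *Tyms* held none of these letters in the window. Promoters were found for 35 of the 42 members among 27025 genes. In the 250 bases before the start, a CCAAT box was present in 90.0% of 20 mitosis genes, 75.0% of 8 replication genes and 37.5% of all genes. A CHR element was present in 55.0%, 25.0% and 28.1%, and an E2F site in 10.0%, 50.0% and 9.0%. Over 300 bases that run past the start, a CHR element was present in 90.0%, 25.0% and 30.6%. An E2F match overlapped a CCAAT box in 1 member. A match describes letters and not a bound site.

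Several features of the libraries bear on the values. *Socs3* FPKM (reads scaled by the length of the transcript and by the mapped reads of the library) ranged from 9.71 to 10.3 in wild-type ears at 2 weeks, and was 1.25, 9.32, 12.6 and 3.51 in the *Socs3* cKO mice of that age. At 10 weeks it was 2.76, 4.81 and 2.02 in wild-type ears and 29.8 to 47.7 in ears of *Socs3* cKO. The targeted gene was thus not lower in every library labelled *Socs3* cKO, in an organ where other cells keep the gene, and the genotypes given below are those of the labels. The labels name keratinocytes as the source and ear as the tissue, and all 6 fibroblast markers and all 4 skeletal muscle markers reached 1 FPKM in every library, as did all 8 basal keratinocyte markers. Hair matrix and shaft markers summed to 483 to 756 FPKM in wild-type ears at 2 weeks and to 5.92 to 17.5 FPKM in the remaining 11 libraries. Each group has its own range of library numbers in the labels, so a difference in preparation and a difference in condition cannot be told apart. *Socs3* cKO replicate 1 at 2 weeks had a steep slope of log2 expression on GC content across genes, at -1.37 per 10 points of GC, where the wild type at 2 weeks had 0.51 to 0.55 and the remaining 10 libraries -0.31 to 0.24. *Socs3* cKO replicate 3 at 10 weeks stood apart in the mitosis genes, as described with that age.

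**Figure D1:**
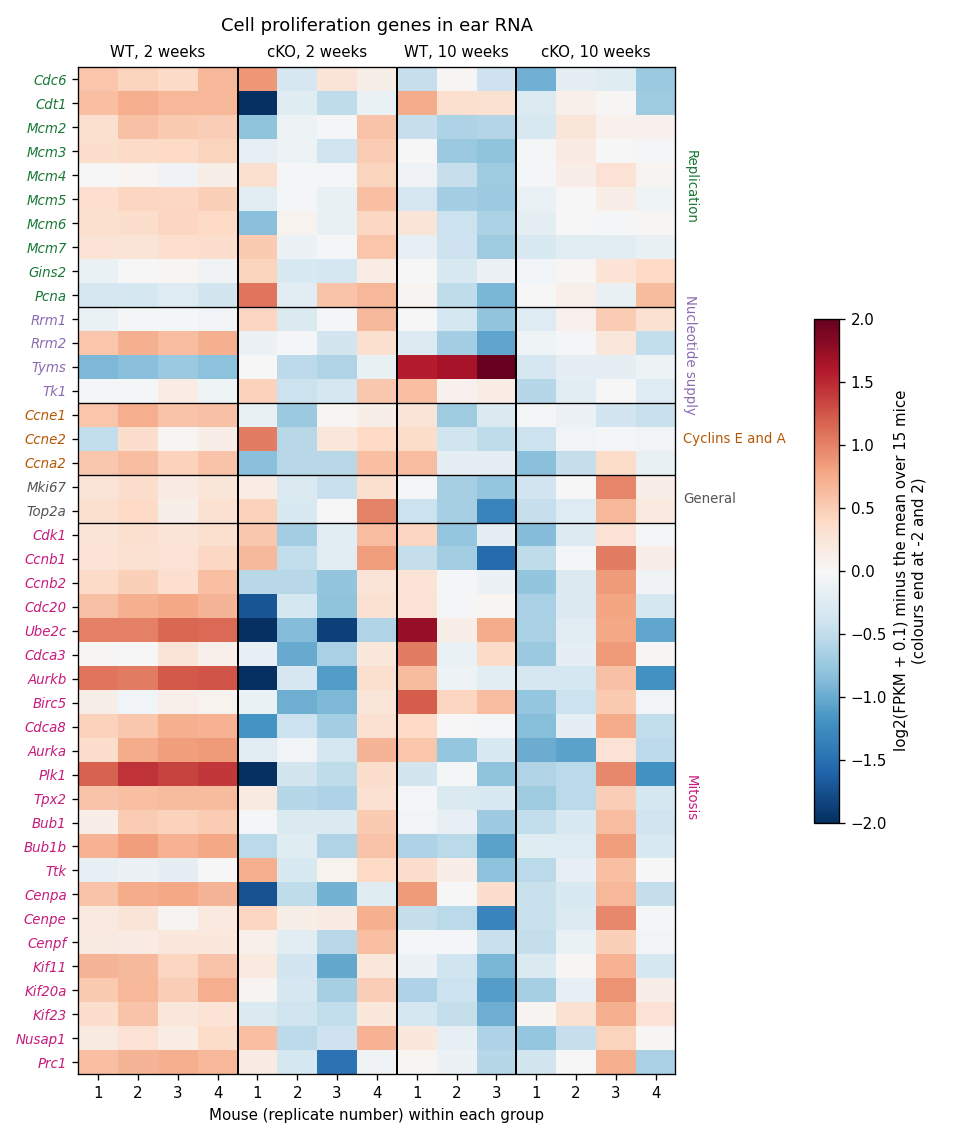
Heat map of the 42 genes (rows, coloured by role) in 15 mice (columns, by group and replicate number), as log2(FPKM + 0.1) minus the mean of the gene over all mice, with red above and blue below that mean. The 4 wild type mice at 2 weeks look alike, *Tyms* is deepest red in the 3 wild type mice at 10 weeks, and the mitosis rows of *Socs3* cKO replicate 3 at 10 weeks are red.

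At 2 weeks, 13 of 23 mitosis genes were lower in the libraries labelled *Socs3* cKO than in wild-type ears, while of the replication genes *Cdt1* was lower and *Pcna* higher, by -1.45 and 0.85 on the log2 scale, or by -0.41 and 0.15 after a trend on length and GC content was removed. Changed genes are those with an adjusted p below 0.05 in limma, and DEGs (differentially expressed genes) those with an adjusted p below 0.01 and a log2 fold change of at least 1 in size. Of the 42 members, 2 were lower as DEGs, both mitosis genes, where 7.19% of all 13524 genes tested were lower as DEGs and 7.24% higher. At the looser limit 17 members fell and 2 rose, where 26.1% of all genes tested fell and 21.8% rose. Of the 23 mitosis genes 13 fell (56.5%) and 0 rose, with 14 of the 23 at an unadjusted p below 0.05, and of the 10 replication genes 1 fell (10.0%) and 1 rose. The median log2 fold change was -0.72 over the mitosis genes and -0.33 over the replication genes, beside -0.21 over all genes tested. The count of 13 was the same without *Socs3* cKO replicate 1. It was 8 (34.8%) after scaling by the median of ratios and 6 (26.1%) after quantile normalization, with 0 higher in each. Of all 13524 genes tested, 3339 and 3349 fell under these settings, so the count after quantile normalization was near the share of all genes. The median of the mitosis genes was then -0.37, beside 0.064 over all genes. The wild type mice varied little, with a median SD of 0.078 (log2) over the members against 0.52 among the *Socs3* cKO mice. In RNA from ear specimens, fewer dividing cells and less RNA in each of them cannot be told apart.

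*Ube2c*, which encodes the ubiquitin-conjugating enzyme of the anaphase-promoting complex, had the largest difference among the members. It lies on chromosome 2 at 164595398 to 164604322 of mm9. Its FPKM was 21.9, 21.8, 24.1 and 23.7 in wild type replicates 1 to 4 at 2 weeks, and 1.90, 5.88, 2.88 and 7.10 in *Socs3* cKO replicates 1 to 4. Every *Socs3* cKO mouse lay far below every wild type mouse. The log2 fold change was -2.52 ± 0.38 (SE, adjusted p = 0.00199 by limma). On the other strand, exons of *Tnnc2*, a muscle troponin, overlap 592 bases of its exons, and the library kit does not mark strand. The 4 skeletal muscle markers summed to 924 to 1494 FPKM in ears of *Socs3* cKO and 427 to 644 FPKM in wild-type ears at this age. At 10 weeks they summed to 209 to 398 FPKM in ears of *Socs3* cKO and 366 to 672 FPKM in wild-type ears. The part of *Tnnc2* reads in the *Ube2c* values was not tested.

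*Cenpa*, the histone variant that marks centromeres, was the other DEG. Its FPKM was 15.4, 17.2, 17.6 and 16.6 in wild-type ears and 3.02, 7.20, 5.31 and 8.64 in ears of *Socs3* cKO. The groups did not overlap, and the log2 fold change was -1.55 ± 0.30 (SE, adjusted p = 0.00555 by limma). The mitotic kinases *Plk1*, of centrosomes and spindle, and *Aurkb*, of the chromosomal passenger complex, had wide spreads in ears of *Socs3* cKO. *Plk1* measured 7.83, 9.41, 8.81 and 9.23 FPKM in wild-type ears and 0.64, 2.63, 2.35 and 4.38 FPKM in ears of *Socs3* cKO. *Aurkb* measured 10.7, 10.5, 11.95 and 12.3 FPKM in wild-type ears and 0.84, 3.998, 2.28 and 6.33 FPKM in ears of *Socs3* cKO. In both genes replicate 1 was the lowest and replicate 4 the highest of the *Socs3* cKO mice, and all 4 were below the wild type. Their log2 fold changes were -2.04 ± 0.48 (SE, adjusted p = 0.0119) and -2.04 ± 0.52 (SE, adjusted p = 0.0150).

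The other 9 mitosis genes that fell had log2 fold changes from -1.33 for *Cdc20*, the activator of the anaphase-promoting complex, to -0.59 for *Kif23*, a motor of the spindle midzone. Among them were *Ccnb2* (-0.86), a B cyclin, *Cdca8* (-1.10), a chromosomal passenger, *Bub1b* (-0.95), a kinase-like protein of the spindle checkpoint, and *Prc1* (-1.10), which bundles midzone microtubules. The entry kinase *Cdk1* was not among them. Its FPKM was 10.1 to 10.6 in wild-type ears and 12.4, 5.23, 7.37 and 13.1 in ears of *Socs3* cKO, which lay on both sides of the wild type (-0.22 ± 0.29 (SE), adjusted p = 0.530). *Ccnb1*, its cyclin partner, measured 8.96 to 9.86 FPKM in wild-type ears and 11.6, 5.21, 6.38 and 13.2 FPKM in ears of *Socs3* cKO (-0.13 ± 0.30 (SE), adjusted p = 0.729). *Ccnb1* shares 40.8% of its 32-base words with other places in the genome, more than any other member.

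**Figure D2:**
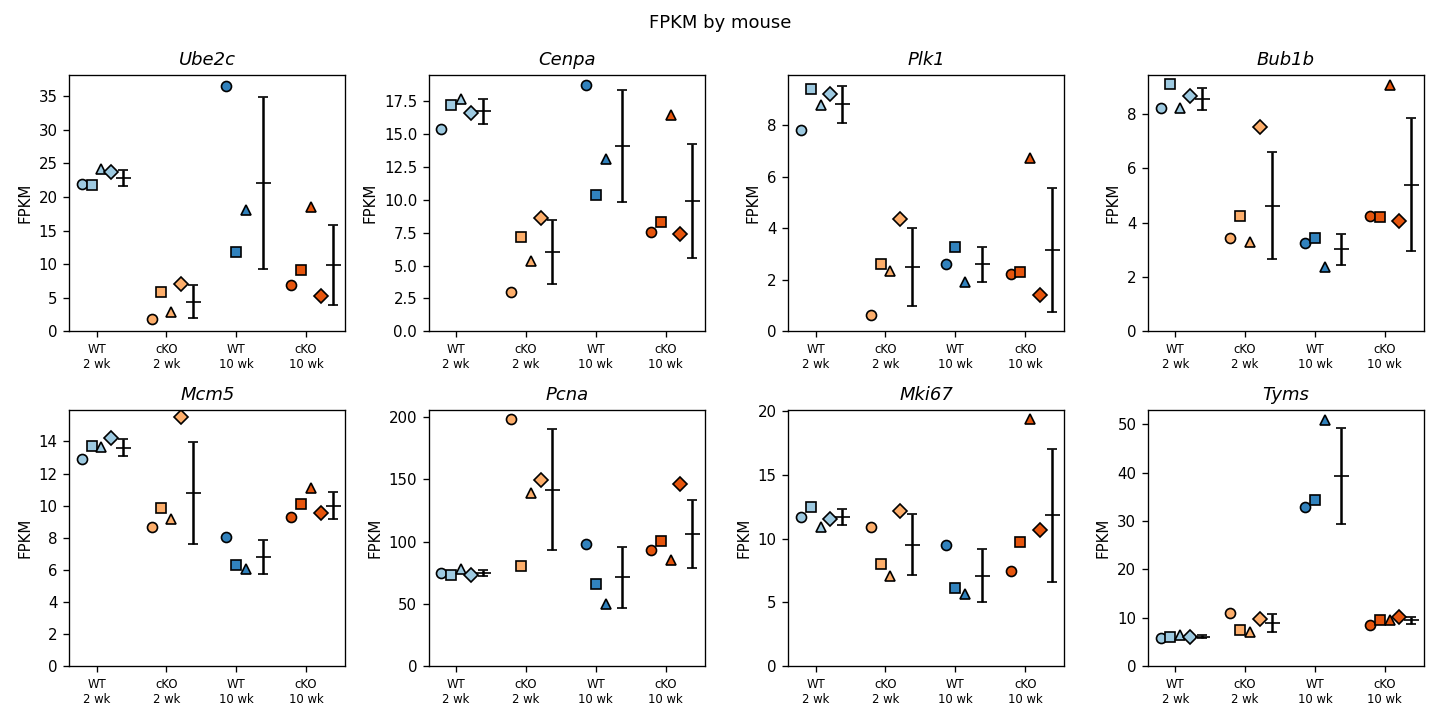
FPKM of 8 members (linear axes from 0) in each mouse of the 4 groups, with symbols for replicates 1 to 4 (circle, square, triangle, diamond) and bars for the mean ± SD. *Ube2c*, *Cenpa* and *Plk1* separate the genotypes at 2 weeks, *Pcna* lies the other way, *Mki67* overlaps, and *Tyms* is highest in wild-type ears at 10 weeks.

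The replication genes did not move together at 2 weeks. *Cdt1*, the loader of the Mcm ring, fell from 7.01, 7.70, 7.35 and 7.34 FPKM in wild-type ears to 0.88, 3.86, 3.21 and 4.21 FPKM in ears of *Socs3* cKO. No *Socs3* cKO mouse reached the wild type (-1.45 ± 0.44 (SE), adjusted p = 0.0272). With a trend on transcript length and GC content removed from each library, the *Cdt1* difference shrank to -0.41 (adjusted p = 0.0373). *Pcna* rose, from 74.7, 73.3, 78.3 and 72.9 FPKM to 198, 80.3, 139 and 150 FPKM. All 4 *Socs3* cKO mice were above the wild type, replicate 2 only slightly (0.85 ± 0.25 (SE), adjusted p = 0.0249). With that trend removed, the *Pcna* difference was 0.15 (adjusted p = 0.413) and no longer passed, and 37.5% of the 32-base words of *Pcna* occur elsewhere in the genome.

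The 6 genes of the Mcm ring had log2 fold changes between -0.57 for *Mcm2* and 0.16 for *Mcm4* at 2 weeks, and none passed the test. *Mcm2* measured 10.7, 12.9, 12.4 and 12.1 FPKM in wild-type ears and 4.87, 7.99, 8.31 and 12.8 FPKM in ears of *Socs3* cKO (adjusted p = 0.101). *Mcm3* measured 14.6 to 15.7 FPKM in wild-type ears and 10.2, 10.7, 8.70 and 16.4 FPKM in ears of *Socs3* cKO (-0.43 ± 0.20 (SE), adjusted p = 0.0960). In both genes 3 *Socs3* cKO mice were below the wild type and replicate 4 was within or above its range. With the length and GC trend removed, *Mcm2* stood at 0.46 and *Mcm3* at 0.19, the opposite sign, and neither passed (adjusted p = 0.0808 and 0.492).

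Among the other members at 2 weeks, *Rrm2*, a subunit of the ribonucleotide reductase that makes deoxynucleotides, fell (-0.71 ± 0.17 (SE), adjusted p = 0.0115). *Tyms*, the thymidylate synthase, rose slightly (0.51 ± 0.17 (SE), adjusted p = 0.0398). *Ccne1*, which opens S phase with its kinase, and *Ccna2*, which carries cells through it, fell by 0.80 and 0.88 on the log2 scale. The proliferation marker *Mki67* measured 11.7, 12.5, 10.96 and 11.6 FPKM in wild-type ears and 10.9, 7.99, 7.11 and 12.2 FPKM in ears of *Socs3* cKO, so the groups overlapped (-0.32 ± 0.19 (SE), adjusted p = 0.185). *Top2a*, the topoisomerase that untangles sister DNA, measured 15.1 to 18.3 FPKM in wild-type ears and 11.1 to 27.5 FPKM in ears of *Socs3* cKO, also overlapping (adjusted p = 0.991).

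**Figure D3:**
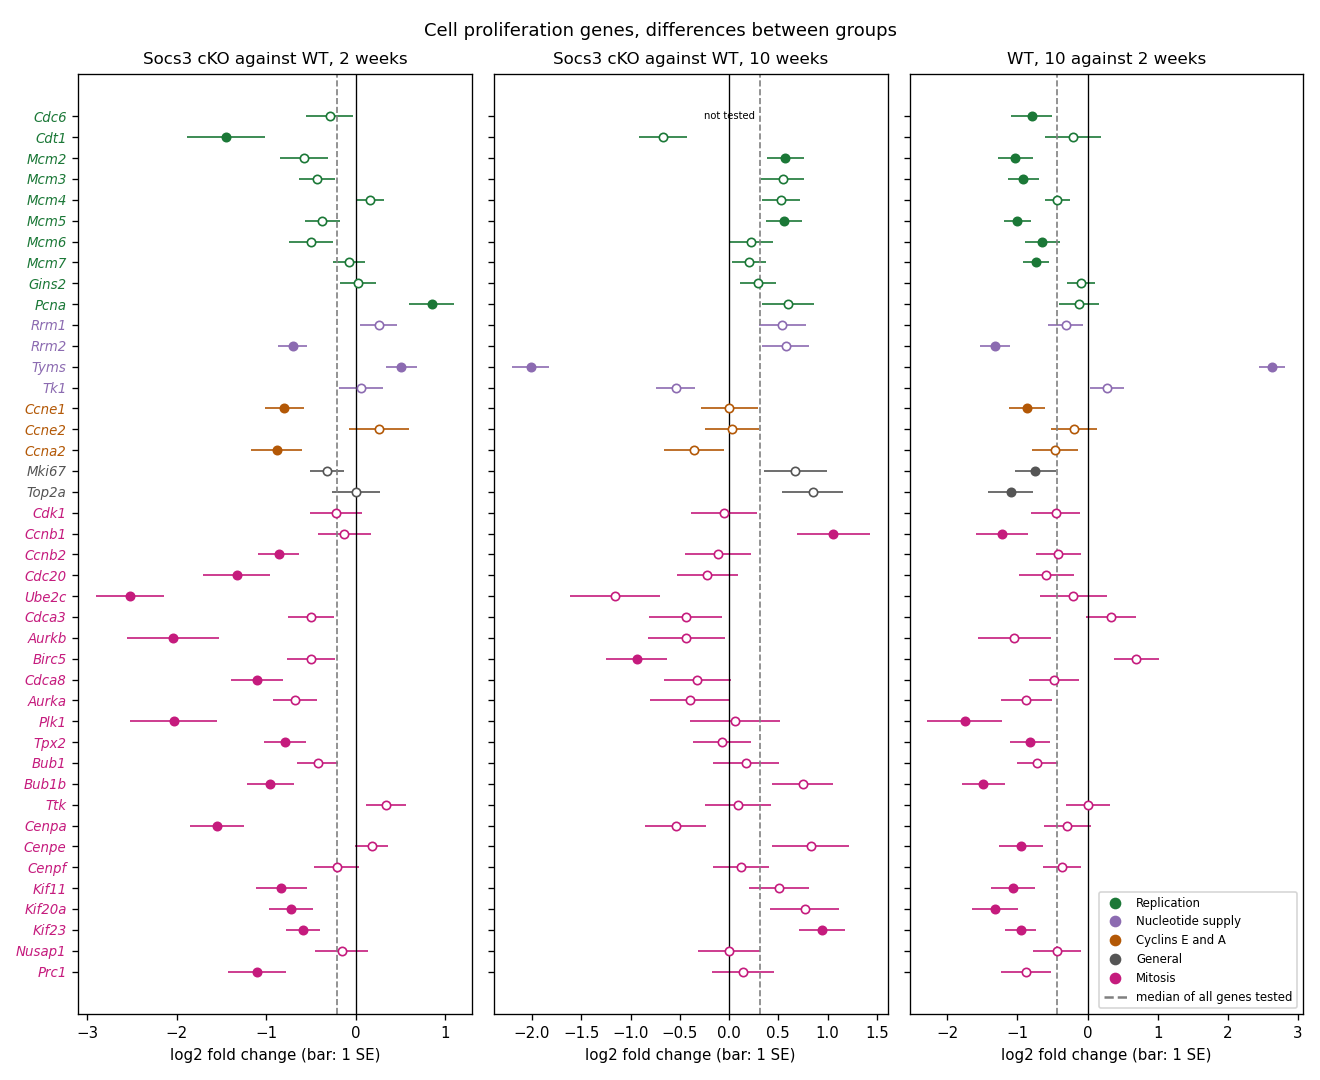
Log2 fold changes of the 42 genes (bars are 1 SE) in 3 comparisons, coloured by role, with filled points for an adjusted p below 0.05 by limma and a dashed line at the median of all genes tested. At 2 weeks filled mitosis points lie to the left, at 10 weeks *Tyms* stands far to the left, and with age in wild-type ears it stands far to the right.

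The mean log2(FPKM + 0.1) of the 10 replication genes and of the 23 mitosis genes was then set side by side in each mouse. At 2 weeks the mitosis mean was 3.18 ± 0.053 (SD, n = 4) in wild-type ears and 2.36 ± 0.44 (SD, n = 4) in ears of *Socs3* cKO, and no mice overlapped. The replication mean was 3.74 ± 0.037 (SD, n = 4) and 3.47 ± 0.25 (SD, n = 4), with replicate 4 of *Socs3* cKO at 3.85, above the wild type. Mitosis minus replication within a mouse ran from -0.58 to -0.55 in wild-type ears and was -1.13, -1.10, -1.37 and -0.85 in ears of *Socs3* cKO. The balance was lower in all 4 *Socs3* cKO mice, by 0.55 on average. It stayed apart by 0.99 with the length and GC trend removed, and by 0.54 without *Socs3* cKO replicate 1.

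Base composition differed between the sets. The median GC content of the longest transcript was 52.4% over the replication genes and 47.4% over the mitosis genes. In *Socs3* cKO replicate 1 at 2 weeks, the deviations of the 42 members from the mean of the other 3 mice of the group went with GC content at a Pearson r of -0.61 (n = 42 genes of 1 library), and from -2.08 for *Aurkb* to 0.999 for *Ccne2*. With the trend removed from every library, 5 mitosis genes were lower as DEGs (*Ube2c*, *Cenpa*, *Plk1*, *Aurkb* and *Ccnb2*). At an adjusted p below 0.05, 12 were lower, with a median of -0.51 beside 0.034 over all genes. Of all 13524 genes tested, 805 were lower as DEGs and 2912 at the looser limit under this setting. The replication genes then had a median of 0.20. *Rrm2* was the remaining DEG under this setting (-1.01, adjusted p = 0.000840).

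The count of 2 DEGs at 2 weeks moved with single mice. It was 5 without *Socs3* cKO replicate 1, 9 without *Socs3* cKO replicate 4, and 1 without *Socs3* cKO replicate 3 or without any 1 of the 4 wild type mice, and each of these DEGs was lower. Without *Socs3* cKO replicate 2 it was 3, of which 1 was higher. *Socs3* cKO replicate 4 was above the mean of the other mice of its group in 23 of 23 mitosis genes. Hair matrix and shaft markers were lower as well at 2 weeks, with all 9 markers tested lower as DEGs. Their sum was 7.37 to 12.4 FPKM in ears of *Socs3* cKO against at least 483 FPKM in wild-type ears. Basal keratinocyte markers summed to 5440 to 7876 FPKM in ears of *Socs3* cKO and 5409 to 5688 FPKM in wild-type ears. Of the 8 basal markers, 1 was higher and 0 were lower as DEGs. Fibroblast markers summed to 5107 to 7088 FPKM in *Socs3* cKO mice against 12664 to 14859 FPKM, with 3 of 6 lower and 1 higher as DEGs, and the 3 erythroid markers tested were higher as DEGs. The part of these markers in the result was not tested.

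**Figure D4:**
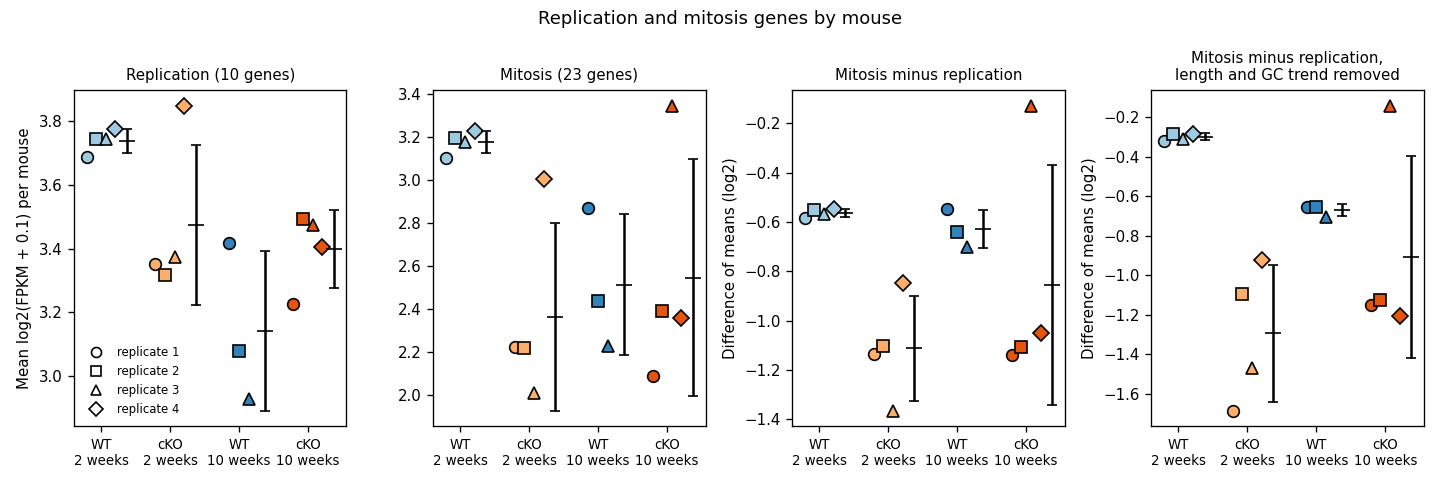
Mean log2(FPKM + 0.1) of replication genes and mitosis genes, and their difference before and after removal of the length and GC trend, for each mouse (symbols by replicate) with mean ± SD for each group. The mitosis minus replication difference is lower in the 4 *Socs3* cKO mice than in wild-type ears at 2 weeks, and *Socs3* cKO replicate 3 at 10 weeks stands above the rest of its group.

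At 10 weeks few members passed the test between the labelled genotypes, and *Tyms* had the largest difference. Of 41 members tested (*Cdc6* was below the expression filter), 1 was lower as a DEG and 0 were higher, where 2.43% of all 13105 genes tested were lower as DEGs and 12.5% were higher. At an adjusted p below 0.05, 4 members were higher and 2 lower, with 16 of the 41 at an unadjusted p below 0.05, where 28.7% of all genes were higher and 8.96% lower. Scaling by the median of ratios, which brings the median of all genes from 0.31 to -0.0062, turned this into 1 higher (2.44%) and 5 lower (12.2%). Of all 13105 genes tested, 2418 were higher and 2379 lower under that scaling. Leaving out any 1 mouse gave 1 to 5 higher and 1 to 4 lower, with 1 higher and 4 lower without *Socs3* cKO replicate 3.

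*Tyms* was the DEG. It lies on chromosome 5 at 30384742 to 30400157 of mm9. It measured 32.9, 34.4 and 50.8 FPKM in wild-type ears at 10 weeks and 8.62, 9.55, 9.54 and 10.3 FPKM in ears of *Socs3* cKO, with a wide gap between the groups (-2.01 ± 0.19 (SE), adjusted p = 0.000170 by limma). This was the only DEG without each of the 7 mice in turn. At 2 weeks the wild type measured 5.81, 6.06, 6.50 and 6.14 FPKM, so the 3 wild type libraries at 10 weeks stood above the 12 others. The same 3 libraries listed 2087, 3176 and 1414 genes at 0 FPKM, where the others listed 4044 to 4423. Of the 32-base words of *Tyms*, 27.8% occur elsewhere in the genome. Of 4 erythroid markers 3 were tested. With age in wild-type ears all 3 were higher as DEGs (median 3.05), as was *Tyms*. At 10 weeks all 3 were lower in *Socs3* cKO at an adjusted p below 0.05 (median -1.73), as was *Tyms*. At 2 weeks all 3 were higher as DEGs in *Socs3* cKO (median 3.03), where *Tyms* rose by only 0.51. With age in *Socs3* cKO all 3 were lower at an adjusted p below 0.05 (median -1.71), where *Tyms* stood at 0.11. The erythroid sums were 300 to 348 FPKM in the wild type and 1734 to 4807 FPKM in *Socs3* cKO at 2 weeks, and 2812 to 4301 FPKM and 430 to 1344 FPKM at 10 weeks. The part of these features in the *Tyms* values was not tested.

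Of the Mcm genes, *Mcm2* and *Mcm5* rose at 10 weeks. *Mcm5* measured 8.02, 6.31 and 6.08 FPKM in wild-type ears and 9.26, 10.1, 11.1 and 9.53 FPKM in ears of *Socs3* cKO. *Mcm2* measured 6.23, 5.56 and 5.70 FPKM in wild-type ears and 6.83, 10.2, 9.07 and 9.13 FPKM in ears of *Socs3* cKO. In both genes the groups did not overlap, with log2 fold changes of 0.56 ± 0.18 (SE, adjusted p = 0.0352) and 0.57 ± 0.19 (SE, adjusted p = 0.0407), and neither passed after scaling by the median of ratios. *Mcm4* measured 11.9, 9.03 and 7.62 FPKM in wild-type ears and 12.3, 13.7, 15.3 and 12.99 FPKM in ears of *Socs3* cKO, just outside the limit (0.52 ± 0.19 (SE), adjusted p = 0.0578). *Cdt1* lay the other way, at 7.76, 5.77 and 5.72 FPKM against 3.78, 4.95, 4.68 and 2.78 FPKM (-0.67 ± 0.25 (SE), adjusted p = 0.0566). At an adjusted p below 0.05, 0 of the 9 replication genes tested were lower. With median-of-ratios scaling, quantile normalization or the length and GC trend removed, 1 was lower. Of all 13105 genes tested, 2379 to 2697 were lower under these settings. *Pcna* overlapped, at 97.9, 66.0 and 49.9 FPKM against 92.9, 100, 85.1 and 146 FPKM (adjusted p = 0.0979).

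Among mitosis genes at 10 weeks, *Kif23* and *Ccnb1* rose and *Birc5* fell. *Kif23* measured 4.82, 4.37 and 3.07 FPKM in wild-type ears and 6.42, 7.59, 10.1 and 7.51 FPKM in ears of *Socs3* cKO, without overlap (0.94 ± 0.23 (SE), adjusted p = 0.0123). *Ccnb1* measured 5.27, 4.54 and 2.48 FPKM in wild-type ears and 5.18, 7.20, 15.1 and 8.12 FPKM in ears of *Socs3* cKO, where replicate 3 was the highest and replicate 1 overlapped the wild type (1.06 ± 0.37 (SE), adjusted p = 0.0480). *Birc5*, which encodes survivin, measured 44.3, 25.6 and 29.2 FPKM against 11.1, 14.1, 27.3 and 18.2 FPKM, with replicate 3 of *Socs3* cKO inside the range of wild-type ears (-0.94 ± 0.31 (SE), adjusted p = 0.0369). *Ube2c*, the leading gene at 2 weeks, measured 36.5, 11.8 and 18.1 FPKM in wild-type ears and 6.87, 9.19, 18.5 and 5.20 FPKM in ears of *Socs3* cKO. Its groups overlapped through replicate 3 (-1.16 ± 0.46 (SE), adjusted p = 0.0708). The *Kif23* call was lost with quantile normalization (adjusted p = 0.0731) and with the length and GC trend removed (adjusted p = 0.148), and the *Ccnb1* call was lost under both and after scaling by the median of ratios (adjusted p = 0.121 to 0.189), while *Birc5* passed under all 3 settings. Under each of these 3 settings 2 of the 23 mitosis genes were lower at an adjusted p below 0.05, beside 1 without them. Of all 13105 genes tested, 2379 to 2697 were lower under these settings. *Mki67* (adjusted p = 0.121), *Top2a* (adjusted p = 0.0535) and *Cdk1* (adjusted p = 0.915) overlapped as well.

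*Socs3* cKO replicate 3 at 10 weeks carried more mitosis RNA than the other 3 mice of its group. All 23 mitosis genes were above the mean of those mice, with a median difference of 1.10 on the log2 scale and a difference of 1.75 for *Plk1*. Of the 10 replication genes 8 were higher, with a median difference of 0.11. *Mki67* measured 19.4 FPKM in this mouse and 7.47, 9.74 and 10.7 FPKM in the others, and *Bub1b* measured 9.07 FPKM against 4.23, 4.21 and 4.08 FPKM. Its mitosis mean of 3.34 was above that of every wild type mouse at 2 weeks, the highest of which had 3.23. The difference over the members had a Pearson r of 0.0074 with GC content (n = 42 genes of 1 library). Hair matrix and shaft markers summed to 6.45 FPKM in this mouse and to 17.5, 9.82 and 5.92 FPKM in the others. Basal keratinocyte markers summed to 7434 FPKM in this mouse and to 6125, 6958 and 6266 FPKM in the others. The cause of the difference was not tested. In 2 more mice all 23 mitosis genes were above the mean of the other mice of the group. These were wild type replicate 1 at 10 weeks (median difference 0.45) and *Socs3* cKO replicate 4 at 2 weeks (0.82).

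**Figure D5:**
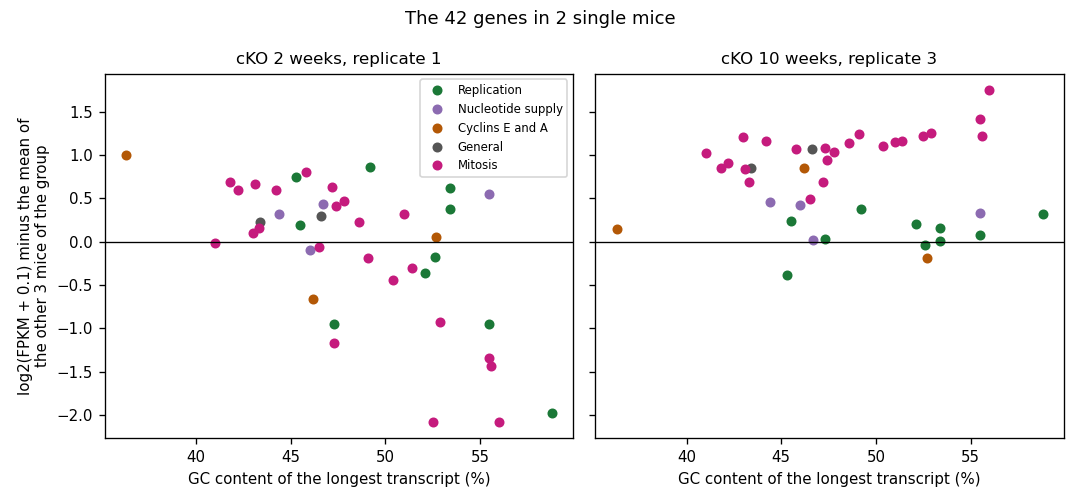
Difference of each of the 42 members from the mean of the other 3 mice of the group (log2, y axis) against GC content of the longest transcript (x axis), in 2 single *Socs3* cKO mice, coloured by role. In replicate 1 at 2 weeks the points fall with GC content (r = -0.61), and in replicate 3 at 10 weeks the 23 mitosis genes lie above 0 at every GC content (r = 0.0074).

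Mitosis minus replication overlapped between genotypes at 10 weeks, through *Socs3* cKO replicate 3. It was -0.55, -0.64 and -0.70 in wild-type ears and -1.14, -1.11, -0.13 and -1.05 in ears of *Socs3* cKO. The mean difference was -0.23 with replicate 3 and -0.47 without it. In 7 of the 8 *Socs3* cKO mice of both ages the balance was at or below -0.85, and in the 7 wild type mice it was at or above -0.70.

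With age in wild-type ears, the share of members that fell was near that of all genes, so the counts are no result about the members. Between 2 and 10 weeks 5 of 42 members were lower as DEGs and 1 was higher, where 19.4% of all 13937 genes tested were lower as DEGs and 6.18% were higher, 25.5% in all. At the looser limit 18 members fell (42.9%) and 1 rose, beside 37.6% and 13.1% of all genes. The lower DEGs were *Mcm2*, *Mcm5*, *Rrm2*, *Bub1b* and *Kif20a*, a motor needed for cytokinesis, and the higher one was *Tyms*. The replication genes had a median log2 fold change of -0.69 and the mitosis genes of -0.72, against -0.44 over all genes tested. Mitosis minus replication differed by -0.067 between the ages. With the length and GC trend removed the younger mice had -0.32 to -0.28 and the older mice -0.70 to -0.65, a difference of -0.37 without overlap.

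*Mcm5* measured 12.9, 13.7, 13.6 and 14.2 FPKM at 2 weeks in wild-type ears and 8.02, 6.31 and 6.08 FPKM at 10 weeks (-1.001 ± 0.19 (SE), adjusted p = 0.000861). *Bub1b* measured 8.22, 9.10, 8.21 and 8.65 FPKM and then 3.24, 3.45 and 2.36 FPKM (-1.49 ± 0.31 (SE), adjusted p = 0.00148). *Mcm3* (-0.91), *Mcm7* (-0.73), *Kif23* (-0.95) and *Kif11* (-1.06), the motor that pushes spindle poles apart, also fell without overlap of the groups. *Kif11* measured 7.64, 7.49, 6.41 and 7.02 FPKM at 2 weeks and 4.32, 3.54 and 2.46 FPKM at 10 weeks. *Kif20a* measured 8.54 to 10.1 FPKM at 2 weeks and 2.77 to 4.44 FPKM at 10 weeks (-1.32 ± 0.33 (SE), adjusted p = 0.00488), and its exons overlap 1259 bases of *Cdc23* on the other strand. *Tyms* went the other way, with a log2 fold change of 2.64 ± 0.19 (SE, adjusted p = 2.75e-07). *Cdk1* (-0.45, adjusted p = 0.283) and *Pcna* (-0.12, adjusted p = 0.729) did not pass.

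With the length and GC trend removed, the median of the replication genes with age was 0.13, beside 0.095 over all genes, *Mcm2* stood at -0.0051 and *Mcm5* at -0.081, while the median of the mitosis genes was -0.38, with 17 of 23 below 0. Under this setting *Tyms* (3.31) and *Birc5* (1.31) were higher as DEGs and 1 member was lower. That member was *Rrm2*, which measured 16.9 to 18.8 FPKM at 2 weeks and 5.44 to 9.37 FPKM at 10 weeks (-1.33 ± 0.22 (SE), and -1.21 with the trend removed). Scaling by the median of ratios left 7 members lower and 2 higher at the looser limit, where 3205 of all 13937 genes were lower and 3274 higher. Quantile normalization left 4 lower and 3 higher, where 3116 of all genes were lower and 3896 higher. The count of 6 DEGs was 3 without wild type replicate 2, 3 or 4 at 2 weeks, 2 without wild type replicate 3 at 10 weeks, and 10 without *Socs3* cKO replicate 1 at 2 weeks or replicate 3 at 10 weeks. Hair markers fell with age in wild-type ears too, 9 of 9 as DEGs, and their part in the members' values was not tested.

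In *Socs3* cKO, no member passed between 2 and 10 weeks: limma called 0 of 42 as DEGs and 0 at an adjusted p below 0.05, where 2.01% of all genes were higher and 1.53% lower as DEGs, 3.54% in all, and 5.29% rose and 4.8% fell, and 5 of the 42 had an unadjusted p below 0.05. The smallest p was that of *Kif23* (0.58 ± 0.20 (SE), adjusted p = 0.0867). The largest difference was that of *Ube2c*, from 1.90 to 7.10 FPKM at 2 weeks and 5.20 to 18.5 FPKM at 10 weeks (1.16 ± 0.45 (SE), adjusted p = 0.114). *Cdc6*, the lowest of the members, measured 0.74 to 1.84 FPKM and then 0.45 to 0.84 FPKM (-0.76 ± 0.27 (SE), adjusted p = 0.0905). *Mcm7* measured 18.4 to 29.3 FPKM and then 16.04 to 17.9 FPKM (-0.46 ± 0.17 (SE), adjusted p = 0.103).

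The genotype by age interaction asks whether the genotype difference itself changed with age. At an adjusted p below 0.01 it was called in 4 of 42 members, 3 toward a higher difference at 10 weeks and 1 toward a lower one, where 18.5% and 7.05% of all genes were called in those directions. The 3 were *Kif23* (1.53 ± 0.30 (SE), adjusted p = 0.00162), *Rrm2* (1.28 ± 0.29 (SE), adjusted p = 0.00385) and *Bub1b* (1.70 ± 0.42 (SE), adjusted p = 0.00576), beside a median of 0.55 over all genes. *Tyms* was the lower one (-2.52 ± 0.25 (SE), adjusted p = 1.86e-05). At an adjusted p below 0.05 there were 10 higher and 1 lower, beside 34.6% and 12.5% of all genes. These became 3 and 2 after scaling by the median of ratios, where 3216 of all 13937 genes were higher and 2991 lower. The count of 4 was 2 without wild type replicate 3 at 10 weeks and 8 without *Socs3* cKO replicate 4 at 2 weeks.

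Further genes of the cell cycle, from lists outside the 42 members, were counted in the same fits. Of 58 other mitosis genes tested at 2 weeks, 7 were lower and 1 higher as DEGs, beside 7.19% and 7.24% of all genes. At the looser limit 23 fell and 3 rose, beside 26.1% and 21.8% of all genes. Scaling by the median of ratios left 18 lower and 4 higher, where 3339 of all 13524 genes fell and 3511 rose. After quantile normalization 15 (25.9%) fell and 7 rose, where 3349 of all genes fell and 4046 rose. The share that fell was then near that of all genes, and the median was 0.049 beside 0.064 over all genes. *Cenpt*, of the inner kinetochore, went from 9.95 to 11.7 FPKM down to 3.52 to 5.71 FPKM (-1.23 ± 0.18 (SE), adjusted p = 0.00192). *Dlgap5*, a spindle protein, stood at -1.12 ± 0.20 (SE, adjusted p = 0.00398). *Pttg1*, the securin that holds separase back, rose from 19.3 to 23.7 FPKM up to 33.9 to 59.5 FPKM (1.14 ± 0.19 (SE), adjusted p = 0.00279). Of 37 other replication genes tested at 2 weeks, 0 were DEGs, 8 rose and 7 fell at the looser limit, close to the shares over all genes, and 20 had an unadjusted p below 0.05.

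Of 19 cell cycle transcription factors at 2 weeks, 4 were lower as DEGs, beside 7.19% of all genes. *Foxm1*, an activator of mitosis genes, measured 7.97 to 8.71 FPKM in wild-type ears and 0.42 to 2.63 FPKM in ears of *Socs3* cKO (-2.52 ± 0.49 (SE), adjusted p = 0.00591). *E2f3*, an activator of S phase genes, measured 4.67 to 5.33 FPKM and 0.74 to 1.74 FPKM (-1.85 ± 0.27 (SE), adjusted p = 0.00156). *E2f7*, a repressor among the E2F factors, measured 1.44 to 1.70 FPKM and 0.06 to 0.40 FPKM (-2.58 ± 0.38 (SE), adjusted p = 0.00166). All 3 had groups that did not overlap.

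*Ccnd1*, the cyclin D that starts the cycle, was the DEG among 8 G1 cyclins and kinases at 2 weeks. Over all genes 7.19% were lower as DEGs. *Ccnd1* measured 38.02, 40.04, 38.9 and 42.9 FPKM in wild-type ears and 10.6, 23.3, 16.8 and 21.1 FPKM in ears of *Socs3* cKO (-1.21 ± 0.24 (SE), adjusted p = 0.00585). At 10 weeks it was higher in ears of *Socs3* cKO, at 36.9, 37.1, 21.8 and 23.9 FPKM against 12.9, 16.5 and 10.7 FPKM (1.14 ± 0.25 (SE), adjusted p = 0.00693). After scaling by the median of ratios or quantile normalization, 0 of these 8 genes were higher as DEGs at 10 weeks. The direction of *Ccnd1* thus turned with age, with an interaction of 2.35 ± 0.36 (SE, adjusted p = 0.000376). Among 6 CDK inhibitors tested at 10 weeks, *Cdkn1a*, which encodes p21, was a DEG, at 49.6 to 66.2 FPKM in wild-type ears and 138 to 164 FPKM in ears of *Socs3* cKO (1.43 ± 0.17 (SE), adjusted p = 0.000445). *Rpa1*, a subunit of the protein that coats single-stranded DNA, was the only DEG of 37 other replication genes at 10 weeks (1.12 ± 0.16 (SE), adjusted p = 0.00134). After either scaling 0 of these 37 genes were higher as DEGs. Of 56 other mitosis genes 0 were DEGs at 10 weeks, with 11 at an unadjusted p below 0.05. Over all genes 12.5% were higher and 2.43% lower as DEGs at that age. With age in wild-type ears, 10 of 58 other mitosis genes and 3 of 37 other replication genes were lower as DEGs, beside 19.4% of all genes.

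In level, which FPKM gives per length, *Pcna* led the members at a mean of 98.5 FPKM over the 4 groups. *Birc5* followed at 21.3 FPKM and *Mcm7* at 20.2 FPKM, and these neighbours overlap in their spread. The lowest were *Bub1* at 1.82 FPKM, *Cenpe* at 1.68 FPKM and *Cdc6* at 1.02 FPKM. The number of reads behind a member's value in a library was estimated at 19 to 4063, with a median of 350.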

How the data were processed

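RNA from ears of 15 mice was sequenced as single reads of 50 bases (TruSeq RNA v2 kit, Illumina HiSeq). The authors aligned reads to mm9 with TopHat2 2.1.0, and the submitters' notes also name Cufflinks, without a role. They deposited FPKM, read numbers per gene scaled by length and by mapped reads. Depth was estimated from the smallest steps of the values at 11600000 to 16600000 mapped reads per library, and limits how firmly low genes are read. Groups came from the labels. The paper counts more wild type mice than the labels, and the rest were not analysed here. The labels do not name litters, so p-values measure the spread between these samples.

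log2(FPKM + 0.1) was tested with limma 3.58.1 (R 4.3.3, trend in the prior variance, 2-sided, Benjamini-Hochberg over all genes) on genes at 1 FPKM or more in at least 3 libraries of the fit. Genotypes were compared within an age on those groups, and age and interaction on all 4 groups. Fold changes are on this scale and understate low genes. The step was run on simulated data with normal noise of equal spread in both groups, which the mice at 2 weeks do not have. Alternatives were other pseudocounts, no filter, 2 scalings, a spline (5 df) on length and GC, a replicate block, other samples in the fit and each library left out. Members' exons came from the mm9 annotation, and promoters from RefSeq (GRCm38.p6). The members and lists were chosen with earlier results of these data known. Per-mouse values are given for *Mki67*, *Top2a*, *Mcm2*, *Pcna*, *Cdk1*, *Ccnb1* and *Ccnd1*, and in each comparison for up to 4 replication and 4 mitosis members with the smallest p and for members called against the rest; from other lists up to 3 called genes are named. *Rrm2* and genes shown for a single library were named after their values were seen.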

Additional observations from a re-analysis of the deposited data

Results flagged for a closer look

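Among 135 groups of 4 values tested for a mouse far from its group (Dixon's criterion), 8 were marked (5.93%), and chance marks about 1 in 20. In *Socs3* cKO replicate 3 at 10 weeks, *Bub1* (2.77 FPKM), *Bub1b* (9.07 FPKM), *Cenpa* (16.4 FPKM) and mitosis minus replication (-0.13) were far above the other 3 mice. *Bub1* was lowest in wild type replicate 1 at 2 weeks (1.95 FPKM). The replication mean was highest in *Socs3* cKO replicate 4 at 2 weeks (3.85). *Mcm3* was highest in *Socs3* cKO replicate 2 at 10 weeks (12.8 FPKM), and *Ccne2* lowest in *Socs3* cKO replicate 1 at 10 weeks (1.99 FPKM).

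The genotype difference changed between ages by the interaction test in *Rrm2* (1.28), *Tyms* (-2.52), *Bub1b* (1.70) and *Kif23* (1.53), in log2 units at 10 weeks minus 2 weeks.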

How the results depend on the processing

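Counts of DEGs among the members moved with the processing. At 2 weeks the count of 2 was 4 with a pseudocount of 1 or with median-of-ratios scaling, 5 with quantile normalization, 6 with the length and GC trend removed or all groups in the fit, 1 with the replicate block, and 1 to 9 with 1 library left out. At 10 weeks the count of 1 was 2 with quantile normalization and 1 with each library left out. With age in the wild type the count of 6 was 2 with median-of-ratios scaling, 1 with quantile normalization, 3 with the trend removed or the replicate block, 11 with only the wild type in the fit, and 2 to 10 with 1 library left out. With age in *Socs3* cKO it was 0 under every alternative run. The interaction count of 4 was 2 with median-of-ratios scaling or the trend removed, 1 with quantile normalization, and 2 to 8 with 1 library left out. Mitosis minus replication kept its sign in all alternatives at both ages between genotypes, at -0.99 with the trend removed at 2 weeks. With age in the wild type it was -0.37 with the trend removed, 0.032 against *Mcm2* to *Mcm7* and *Pcna* alone, and -0.19 by medians over genes. The causes were not tested.

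Values of single genes and DEG counts of the other cell cycle lists were tallied together. Of these, 1293 were the same, 80 weaker and 48 stronger. For a gene, the same means that sign and side of the limit were kept, and otherwise the call was lost or gained. For a list, it means a close count, and otherwise a lower or higher one. The sign changed in 44 values of single genes, none of them past an adjusted p of 0.05 after the change. With the trend removed, the new values at 2 weeks were 0.19 for *Mcm3*, 0.46 for *Mcm2* and -0.039 for *Top2a*. At 10 weeks they were -0.085 for *Mcm4* and -0.24 for *Mki67*. With age in the wild type they were 0.13 for *Mcm7*, 0.13 for *Mki67* and 0.016 for *Cdk1*, and in *Socs3* cKO -0.23 for *Mcm2* and 0.016 for *Ccnb1*. For the interaction they were -0.19 for *Mcm5*, -0.22 for *Mcm2*, -0.053 for *Mcm3*, -0.22 for *Mcm6*, -0.11 for *Mki67*, 0.29 for *Pcna* and -0.36 for *Cdk1*. With median-of-ratios scaling they were 0.067 for *Ccnb1* at 2 weeks, 0.30 for *Pcna* with age in the wild type and -0.32 for *Cdk1* in the interaction. With quantile normalization they were 0.053 for *Cdk1* and 0.17 for *Ccnb1* at 2 weeks, 0.091 for *Cdk1* with age in the wild type, -0.069 for *Mcm2* with age in *Socs3* cKO and -0.49 for *Cdk1* in the interaction. With 1 library left out, values on both sides of 0 ran from -0.23 to 0.20 for *Top2a*, -0.40 to 0.031 for *Cdk1* and -0.34 to 0.10 for *Ccnb1* at 2 weeks, and from -0.35 to 0.25 for *Cdk1* at 10 weeks. With age they ran from -0.38 to 0.10 for *Pcna* in wild-type ears, and in *Socs3* cKO from -0.018 to 0.44 for *Mki67*, -0.12 to 0.34 for *Mcm2* and -0.33 to 0.18 for *Ccnb1*. For the interaction they ran from -0.50 to 0.0035 for *Pcna* and -0.13 to 0.47 for *Cdk1*.

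Replicate numbers are shared between groups in the labels. No pairing by number was seen (mean correlation of samples with the same number 0.02 at 2 weeks and -0.11 at 10 weeks). These means rest on few mice and cannot exclude a pairing. In the fit with the replicate block *Ube2c* stayed a DEG at 2 weeks and *Cenpa* did not (adjusted p = 0.0135).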
